A study of Sus scrofa with 8 samples.

Results

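Water and ion movement across the lung was followed through 7 genes: 4 aquaporins (AQP1, AQP3, AQP4 and AQP5), the epithelial sodium channel subunit SCNN1A, the sodium pump subunit ATP1B1 and the chloride channel CFTR. A probe was taken when the RefSeq accession of the array design, or a gene name listed by the study, gave 1 of these symbols and the spot was well above background on at least 1 array. All 7 genes were found, among 3828 genes with a named probe that was tested. Each had 1 probe of 1 spot among 43603 non-control probes, and all 7 probes were well above background on all 8 arrays and entered the test of 34406 probes. None was saturated. The probes were chosen by name, and the filter on background was the one measured value used in that rule. The 7 genes themselves were chosen with earlier results of these data known.

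The lungs came from 4 groups of 6-month-old female pigs in a migrant design. TH pigs were Tibetan pigs born and kept at 3500 m, TL pigs were Tibetan pigs moved from there to 40 m at 1 month of age, DL pigs were Duroc pigs born and kept at 40 m, and DH pigs were Duroc pigs moved from there to 3500 m at 1 month of age. Each group had 2 pigs, each with 1 array of total RNA from a piece of whole lung, so that no cell type was isolated. Altitude coincided with the rearing site, and a move at 1 month of age was part of TL and DH but not of TH and DL. These conditions cannot be told apart from altitude or from the breed by altitude interaction.

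The alveolar surface is kept nearly dry by active salt transport. Sodium enters epithelial cells through the apical epithelial sodium channel and is pumped out at the basolateral side by the Na,K-ATPase, and chloride follows in part through CFTR. Water follows the salt, and aquaporins are membrane pores that let it pass quickly. In lung, AQP1 is known from capillary endothelium and red cells, AQP3 and AQP4 from the basolateral side of airway epithelium, and AQP5 from the apical side of alveolar type I cells and of gland cells.

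The arrays lay on 2 slides, TH with DL on 1 and DH with TL on the other, so the interaction (TH minus TL, less DH minus DL) is the same contrast as slide and cannot be told apart from it. The breed effect (Tibetan minus Duroc) and the altitude effect (high minus low) were balanced over slides. Differences within a breed or within an altitude each lay between the slides. The TL arrays stood apart: their median raw spot signal was 324 and 333.5, against 207.5 to 230 on the other 6 arrays, and they correlated with those at r = 0.949 to 0.963, whereas those of different groups among the 6 correlated at r = 0.976 to 0.982. Lung markers were present, with AGER, HOPX, CAV1, SFTPB, SFTPC and PECAM1 among the tested genes. Alveolar type I markers were tested for 5 of 9 genes, alveolar type II for 5 of 8 and endothelial for 6 of 8, each well above background on all arrays. None of the listed ciliated or basal airway markers had a named probe that was tested.

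Of the 7 genes, 2 aquaporins were lower at high altitude in both breeds. AQP4 and AQP1 were 3.0-fold and 2.41-fold lower at 3500 m than at 40 m over both breeds, and CFTR was 1.5-fold higher. AQP3, AQP5, SCNN1A and ATP1B1 did not pass the false discovery rate (FDR) threshold of 0.0001 for the altitude effect. In total 1 gene was higher and 2 were lower by limma's moderated test adjusted over all probes, where 17.4% of all tested probes passed in either direction (8.94% higher and 8.47% lower). Among the 2345 tested probes with a RefSeq accession, the class of probe to which all 7 genes belonged, 24.9% passed, 18.7% higher and 6.14% lower. The count of genes is therefore near a background in which altitude changes were common, and the size and direction of single genes carry the description below. The median altitude effect of the 7 genes was -0.21 on the log2 scale, beside 0.00 for all tested probes and 0.17 for RefSeq probes.

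**Figure D1:**
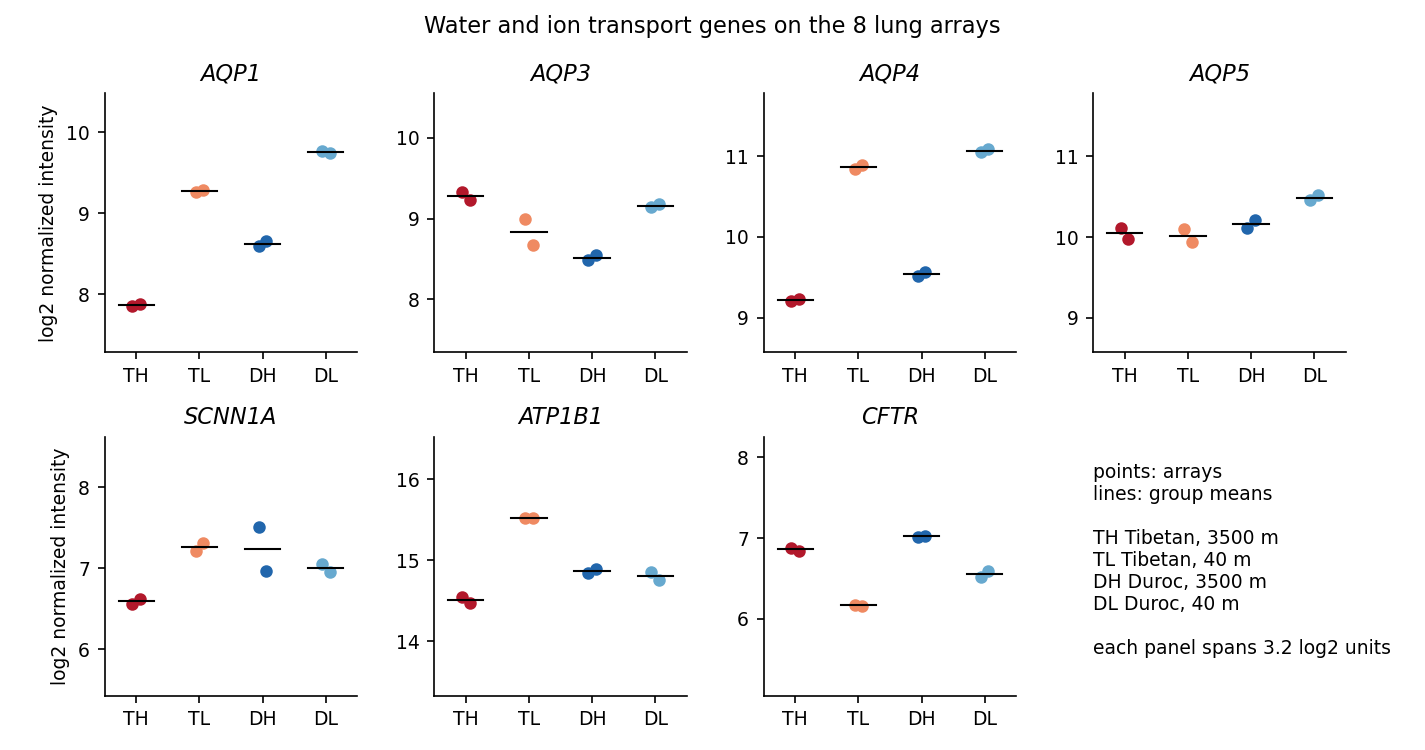
Log2 normalized intensity (y axis) of the 7 genes on each array (points) by group (x axis), with group means as lines; every panel spans the same number of log2 units. AQP1 and AQP4 were lower on all 4 high-altitude arrays than on all 4 low-altitude arrays, ATP1B1 was highest in TL, and the 2 DH arrays differed for SCNN1A.

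AQP4, a pore that passes water only and sits in airway epithelium in many mammals, had log2 normalized intensities of 9.21 and 9.23 in TH, 10.84 and 10.89 in TL, 9.52 and 9.57 in DH, and 11.05 and 11.08 in DL. Both high-altitude groups lay below both low-altitude groups with no overlap, and pigs of the same group differed by far less than the groups did. The raw spot intensities, before any normalization, were 574 and 581 in TH, 2300 and 2460.5 in TL, 680 and 677 in DH, and 2019.5 and 2106.5 in DL, with a local background of 31.5 to 37. The same order of high and low altitude was thus visible in the scanner values. The altitude effect was -1.58 (SE 0.03, 95% confidence interval -1.66 to -1.51, adjusted p = 6.79e-06), and 1.30% of all tested probes and 1.88% of RefSeq probes had an altitude effect of at least this size in either direction.

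Within each breed the AQP4 difference was similar. It was -1.64 between TH and TL (3.13-fold, adjusted p = 2.22e-06) and -1.52 between DH and DL (2.88-fold, adjusted p = 3.39e-05). The difference of these differences was -0.12 (95% confidence interval -0.27 to 0.03, adjusted p = 0.125), and with the processed signals or the deposited values it was between 0.02 and 0.05, so its direction was not settled. In the order DL, TL, DH and TH, the step from TL to DH was 1.32 log2 units (adjusted p = 5.32e-06), and the steps within altitude, 0.20 between DL and TL and 0.32 between DH and TH, missed the threshold (adjusted p = 0.00716 and 0.00208). The breed effect was -0.26 (adjusted p = 6.70e-04). For this gene the pigs separated mainly by where they had lived, and pigs of either breed moved as piglets lay near the residents of the altitude they were moved to.

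AQP1, the water channel of capillary endothelium and red cells, had log2 normalized intensities of 7.86 and 7.88 in TH, 9.26 and 9.29 in TL, 8.59 and 8.66 in DH, and 9.77 and 9.75 in DL. Again the 4 high-altitude arrays lay below the 4 low-altitude arrays, and within each altitude the Tibetan pigs lay below the Duroc pigs. Its raw spot intensities were 257 and 256.5 in TH, 907.5 and 949 in TL, 373 and 374.5 in DH, and 786 and 785.5 in DL. On the raw scale TL was above DL, and this order turned after normalization, which lowers the brighter TL arrays. The altitude effect was -1.27 (SE 0.03, 95% confidence interval -1.34 to -1.20, adjusted p = 7.64e-06), a size reached by 3.36% of all tested probes. With a correction for local background and an offset of 50, it was -0.67 and still passed.

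AQP1 was 2.65-fold lower in TH than in TL (log2 difference -1.41, adjusted p = 3.22e-06) and 2.19-fold lower in DH than in DL (-1.13, adjusted p = 5.06e-05). It was the 1 gene of the 7 that passed for breed, with an effect of -0.62 (SE 0.03, 1.54-fold lower in Tibetan pigs, adjusted p = 2.37e-05), where 19.5% of all tested probes passed in either direction. The 4 Tibetan arrays as a whole overlapped the 4 Duroc arrays, since TL pigs lay above DH pigs by 0.65 (adjusted p = 5.23e-05). The other steps in the order DL, TL, DH and TH were 0.48 and 0.76 and missed the threshold (adjusted p = 1.57e-04 and 1.06e-04). The interaction was -0.27 (adjusted p = 0.00833), and between -0.60 and -0.02 under the other ways of making the values, 1 of which, scaling to the 75th percentile, passed the threshold. A larger altitude difference of AQP1 in Tibetan than in Duroc pigs was therefore not settled by these arrays.

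Being lower at high altitude in both breeds, each at the threshold of 0.0001, was rare on the array. It held for AQP1 and AQP4 and for 91 of 34406 tested probes, which is 0.264%, or for 15 of 2345 RefSeq probes, which is 0.64%. Few probes passed between DH and DL at all: 3.07% of all tested probes in either direction, against 29.5% between TH and TL. Of the 7 genes, 2 passed between DH and DL, both lower, and 4 passed between TH and TL, 3 lower (AQP1, AQP4 and ATP1B1) and 1 higher (CFTR).

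**Figure D2:**
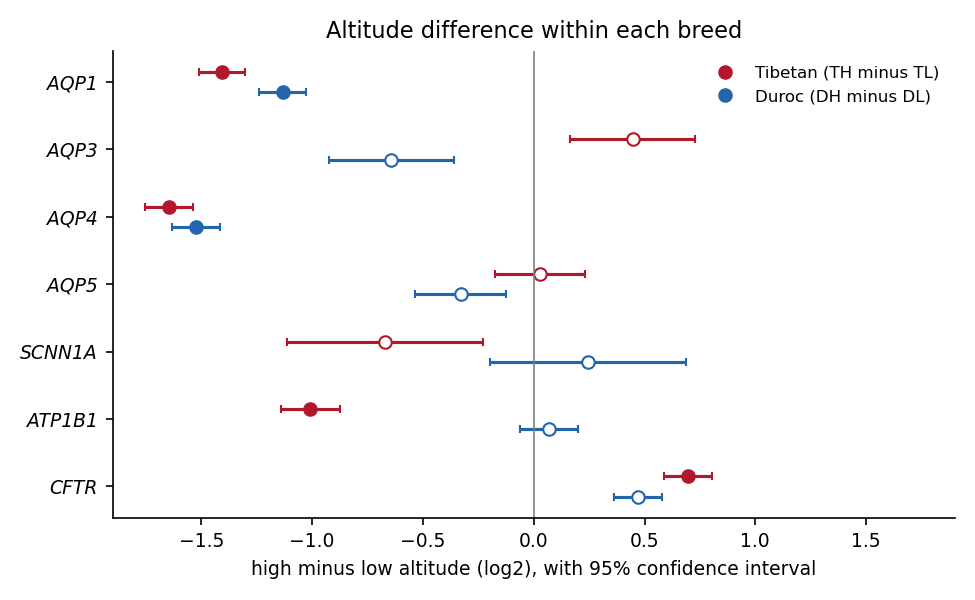
Log2 difference between high and low altitude (x axis) for each gene (y axis) in Tibetan pigs (red) and in Duroc pigs (blue), with 95% confidence intervals of the limma fit; filled points passed the FDR threshold of 0.0001. The intervals of AQP1 and AQP4 lie below -1.03 and -1.42 in both breeds, and the other 5 genes do not pass in both.

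**Figure D3:**
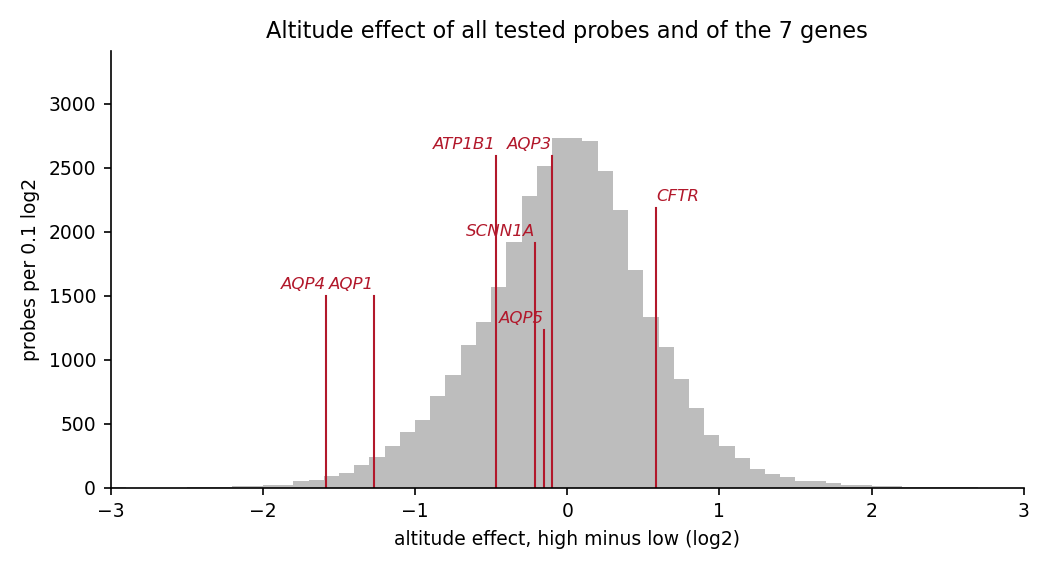
Number of tested probes (y axis, grey bars of 0.1 log2 units, shown from -3 to 3) by altitude effect (x axis), with the 7 genes as red lines. AQP4 at -1.58 and AQP1 at -1.27 lie in the lower tail, while AQP3, AQP5 and SCNN1A lie near the centre.

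In whole lung, fewer cells of a type and less RNA per cell cannot be told apart. The altitude effects of the 6 tested endothelial markers had a median of -0.05 and ran from -0.55 (TEK) to 0.13 (ENG). TEK passed as lower, and every marker had a smaller effect than the -1.27 of AQP1. For KDR the effect averaged opposite changes within the breeds, 0.85 between TH and TL and -0.72 between DH and DL. The first of these passed, as did the KDR interaction of 1.56. Their summed normalized intensity was 283352 to 300906 in TH, 332281 to 335706 in TL, 375176 to 377971 in DH and 399107 to 404552 in DL. This sum, like AQP1, was lowest in TH and highest in DL. The middle groups were in the other order, since TL lay below DH in the sum and above DH for AQP1. The 2 tested red cell genes, HBB and AHSP, had altitude effects of -0.07 and 0.00 and were higher in Tibetan pigs by 0.97 and 1.15, opposite in direction to the breed effect of AQP1. The part of endothelial or red cell RNA in the AQP1 result was not tested beyond these values.

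Beside AQP4, the 4 tested secretory airway and gland markers (BPIFA1, BPIFB1, LTF and PIGR) had altitude effects of -0.26 to 0.17 and breed effects of 1.33 to 5.26. For BPIFA1 and LTF these altitude effects averaged opposite changes within the breeds. BPIFA1 differed by -1.44 between TH and TL and by 1.598 between DH and DL, and LTF by 1.41 and -1.205. All of these differences passed the threshold, and no difference within a breed did for BPIFB1 or PIGR. Of the 8 skeletal muscle markers tested, 2 passed as higher at high altitude and none as lower, against 8.94% and 8.47% of all tested probes. Their summed intensity was 7296 to 7325 in TH and 6975 to 7401 in DH, above 5249 to 5631 in TL and 4144 to 4200 in DL, although the effects ran from -0.76 for ACTA1 to 0.93 for MYH2 and were below 0 for ACTA1 and MYH7. Of the 4 leukocyte markers tested, 3 passed for altitude, with LYZ lower by -1.83 and CD79A and CD3E higher by 1.89 and 1.30, while CD163 was at 0.02. LYZ and CD3E changed in the same direction in both breeds, whereas the effects of CD79A and CD163 averaged opposite changes. CD79A rose by 3.995 from TL to TH, which passed, but its Duroc means were 9.64 at high and 9.86 at low altitude. Its interaction of 4.22 passed too. CD163 differed by -0.33 between TH and TL, which did not pass, and its Duroc means were 17.04 at high and 16.67 at low altitude. The summed leukocyte intensity was lowest in TH at 124540 to 125303, followed by TL at 172255 to 186169. It was 200442 to 203641 in DH and 285746 to 287900 in DL. The sum mostly reflects the brightest markers, CD163 and LYZ, with group means of 16.64 to 17.04 and 13.44 to 17.45 in log2. CD3E and CD79A were instead highest in TH, with group means of 12.51 and 12.47. The part of muscle and leukocyte RNA in the altitude differences of AQP4 and AQP1 was not tested.

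AQP3, which also passes glycerol, had log2 normalized intensities of 9.33 and 9.23 in TH, 9.0 and 8.67 in TL, 8.49 and 8.55 in DH, and 9.14 and 9.18 in DL. In these values the residents of either altitude lay above both groups that had been moved, and the 2 TL pigs differed by more than pigs of any other group. That order depended on the scale. Raw spot intensities were highest in TL, at 769.5 and 650, against 614 and 581 in TH and 510 and 535 in DL. With the processed signal scaled to the 75th percentile, the means of TL and DL were -1.972 and -1.973. The altitude effect was -0.10 (adjusted p = 0.323), while the difference was 0.45 between TH and TL and -0.64 between DH and DL. Their difference, the interaction, was 1.09 (SE 0.16, adjusted p = 0.00168), which missed the threshold of 0.0001 and coincided with the slide. In the order TH, DL, TL and DH no step passed, and TH and DL differed by 0.12 (adjusted p = 0.412).

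AQP5, the apical water channel of alveolar type I cells, varied least of the 7 genes in log2 normalized intensity, with a range of 0.58. With the processed signal scaled to the 75th percentile, ATP1B1 varied less, with a range of 0.39 against 0.53 for AQP5. It had log2 normalized intensities of 10.12 and 9.97 in TH, 10.09 and 9.94 in TL, 10.11 and 10.21 in DH, and 10.46 and 10.52 in DL. DL lay above the other groups by 0.33 to the nearest of them (adjusted p = 0.0187), and the neighbours among DH, TH and TL overlapped. Its breed, altitude and interaction effects were -0.29 (adjusted p = 0.00611), -0.15 (adjusted p = 0.0642) and 0.36 (adjusted p = 0.0357). Of the other 4 tested alveolar type I markers, CLIC5 passed for altitude at -1.04 (adjusted p = 3.54e-05), with its high level in TL, while AGER, HOPX and CAV1 had effects of -0.22, -0.36 and -0.40 that did not pass. The altitude effect of AQP5 had a 95% confidence interval of -0.30 to -0.01, so that a change as large as that of AQP4 or AQP1 lay outside it.

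SCNN1A, the alpha subunit needed for a working epithelial sodium channel, was a dim probe with raw intensities of 136 to 273. Its log2 normalized intensities were 6.56 and 6.62 in TH, 7.21 and 7.31 in TL, 7.52 and 6.97 in DH, and 7.05 and 6.95 in DL. TH lay below the other groups, and the 2 DH pigs lay at the top and near the bottom of the rest. The breed effect was -0.19 (adjusted p = 0.219) and the altitude effect -0.21 (adjusted p = 0.186), and under scaling to the 75th percentile the breed effect was 0.01. The interaction was -0.91 (SE 0.25, adjusted p = 0.0199). No step in the order TL, DH, DL and TH passed, with adjusted p = 0.934, 0.288 and 0.102.

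ATP1B1, the beta subunit that brings the Na,K-ATPase to the membrane, had log2 normalized intensities of 14.55 and 14.47 in TH, 15.52 and 15.52 in TL, 14.85 and 14.89 in DH, and 14.85 and 14.75 in DL. TL stood above all other groups and TH below them, and DH and DL overlapped. The difference was -1.01 between TH and TL (2.01-fold, adjusted p = 2.02e-05) and 0.07 between DH and DL (adjusted p = 0.309). The interaction was -1.08 (SE 0.07, adjusted p = 7.88e-05), the 1 interaction of the 7 genes that passed, where 21.1% of all tested probes and 18% of RefSeq probes passed in either direction.

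This pattern of ATP1B1 rested on the TL arrays and on the scaling. Raw spot intensities were 25140 and 24168 in TH, 40678 and 41613 in TL, 31321 and 31080 in DH, and 30318 and 28620 in DL. With the processed signal scaled to the 75th percentile of each array, the interaction was -0.40 (adjusted p = 7.01e-04), no longer past the threshold, and the mean was 4.18 for DH, 4.06 for TL, 4.04 for DL and 3.8 for TH, so that TL was no longer the highest. The breed effect of 0.18 turned to -0.18 and the altitude effect moved from -0.47 (adjusted p = 1.51e-04) to -0.05 under that scaling. That scaling moved the median interaction of all tested probes from 0.19 to 0.33 and changed the part that the whole brightness of an array plays in a value. TL was the group with the highest mean for 31% of all tested probes and 16.7% of RefSeq probes.

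CFTR, the cAMP-regulated chloride channel of epithelial cells, was also dim, with raw intensities of 157 and 150 in TH, 134 and 136.5 in TL, 152.5 and 153 in DH, and 122 and 130.5 in DL. Its log2 normalized intensities were 6.88 and 6.84 in TH, 6.17 and 6.16 in TL, 7.02 and 7.03 in DH, and 6.51 and 6.59 in DL. High-altitude arrays lay above low-altitude arrays in both breeds without overlap, as they did, in either direction, for 19.8% of all tested probes. The altitude effect was 0.58 (SE 0.03, adjusted p = 3.56e-05), with 0.70 between TH and TL (adjusted p = 3.79e-05) and 0.47 between DH and DL (adjusted p = 5.04e-04). It passed under 4 of 12 alternatives and did not under 8, and with local background and an offset of 50 it shrank to 0.11. The 4 include the slide as a block and a looser FDR threshold, under which the call could not be lost. Since the spots were only a few times brighter than the local background of 33 to 38.5 and the value moved with the correction for background, the size of this difference is uncertain.

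**Figure D4:**
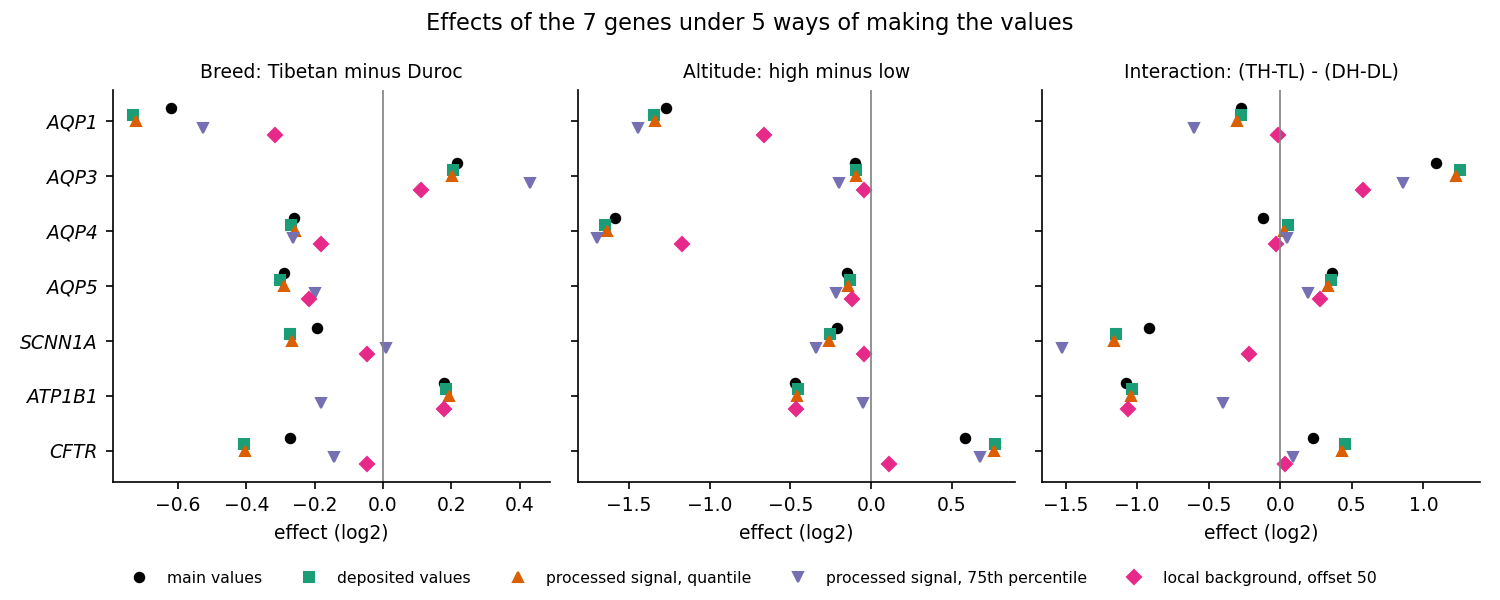
Breed effect, altitude effect and interaction (x axes, log2) of the 7 genes (y axis) under 5 ways of making the values from the same arrays (symbols). The altitude effects of AQP1 and AQP4 stay below -0.66 throughout, the interaction of ATP1B1 runs from -1.08 to -0.40, and the altitude effect of CFTR from 0.11 to 0.77.

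The deposited log2 values, normalized by the authors, placed the genes in like fashion. For AQP4 they were 9.096 and 9.097 in TH, 9.31 and 9.37 in DH, 10.67 and 10.77 in TL, and 10.99 and 11.03 in DL, and altitude changed them by -1.65 (adjusted p = 3.35e-06). For AQP1 they gave -1.34 (adjusted p = 3.28e-06) for altitude and -0.73 (adjusted p = 9.14e-06) for breed. For ATP1B1 they gave an interaction of -1.03 (adjusted p = 2.50e-05), and for CFTR an altitude effect of 0.77 that missed the threshold (adjusted p = 3.62e-04).

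Within a slide, groups differ in both breed and altitude at once. On the slide with TH and DL, AQP1 differed by -1.89 (adjusted p = 8.94e-06) and AQP4 by -1.84 (adjusted p = 9.61e-06), the 2 of 7 genes that passed there, against 6.47% of all tested probes. On the slide with TL and DH, the high-altitude group was again lower, and TL minus DH was 0.65 for AQP1 and 1.32 for AQP4 (adjusted p = 5.32e-06). CFTR was -0.86 (adjusted p = 2.02e-05) in that comparison, and in all 3 genes passed there, against 26.2% of all tested probes. Between TL and DL, 1 gene passed, ATP1B1 at 0.72 (adjusted p = 7.61e-05), against 29.9% of all tested probes. Between TH and DH none of the 7 passed, against 4.42% of all tested probes, although 6 had an unadjusted p below 0.05 by limma. These pairwise comparisons share arrays with each other and with the altitude, breed and interaction effects.

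With the TL arrays left out, altitude was DH minus DL, from Duroc pigs alone, and breed was TH minus DH. Both compare 1 slide with the other, so slide cannot be told apart from either effect there. In a limma fit of the other 6 arrays, an alternative added after the values were seen, AQP4 was lower by -1.52 (adjusted p = 3.90e-04) and AQP1 by -1.13 (adjusted p = 4.58e-04) in DH than in DL. No gene of the 7 and 0 of 34406 probes passed 0.0001 for altitude in that fit, while 5 of the 7 genes had an unadjusted p below 0.05. Likewise, when any 1 array was left out no probe at all passed for altitude, and AQP1 and AQP4 kept effects of -1.25 to -1.29 and -1.57 to -1.60, with adjusted p from 1.07e-04 to 1.57e-04. In the fits without 1 array, 2 to 1854 probes passed for breed and 1463 to 2836 for the interaction, and the cause of the count of 0 for altitude was not tested.

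At an FDR of 0.05 the calls were common and say less about single genes. For breed 5 of the 7 genes passed, 1 higher and 4 lower in Tibetan pigs, against 67.7% of all tested probes. For altitude 4 passed, 1 higher and 3 lower, against 66.9%, and for the interaction 6 passed, 3 in each direction, against 69.7%.

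A wider list of 74 genes of epithelial fluid transport was set beside the 7. It held other aquaporins, sodium channel and sodium pump subunits, chloride, bicarbonate, potassium and proton transporters, their regulators and tight junction genes. A named probe was tested for 32 of them, 43 probes in all. For altitude 12 probes of 10 genes were higher and 6 probes of 4 genes lower, for breed 7 were higher and 9 lower, and for the interaction 11 were higher and 3 lower. These were 41.9%, 37.2% and 32.6% of the probes, but 32.1%, 28.6% and 25% of the 28 probes with a RefSeq accession, beside 24.9%, 20.3% and 18% of all tested RefSeq probes. Of the other 15 probes 60%, 53.3% and 46.7% passed. These 15 were named only through the study's result tables, which include its differentially expressed genes. They can have entered the list because the same data called them, so their shares have no fair background. The other aquaporins tested, AQP8, AQP9 and AQP11, did not pass for altitude, with effects of 0.10, 0.73 and 0.35. The AQP9 probe was not well above background on either DL array, at 5.48 and 5.35, so the size of its effect is uncertain.

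The other sodium channel subunit tested was SCNN1G, the gamma subunit, which had log2 normalized intensities of 11.50 and 11.41 in TH, 10.29 and 10.31 in TL, 11.30 and 11.37 in DH, and 11.94 and 11.94 in DL. It was lowest in TL and highest in DL, and both the breed effect of -0.76 (adjusted p = 2.31e-05) and the interaction, 1.76 (adjusted p = 1.22e-05), passed. Its interaction was opposite in sign to the -0.91 of SCNN1A, the alpha subunit. The SCNN1G probe was designed on an assembled cluster of transcript sequences and not on a RefSeq transcript, no other probe of the gene was tested, and whether it reads SCNN1G transcripts alone was not tested. SCNN1B was not analysed here.

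The largest breed or interaction effects of these genes belonged to CLIC5, CLCA1, KCNE1, NR3C1, OCLN and P2RY2. CLIC5, a chloride intracellular channel protein found in alveolar type I cells, was measured by 2 probes of the same transcript, with 11.72 on both TL arrays against 7.38 to 8.79 on the others for 1 of them, and interactions of -4.54 and -3.51. CLCA1, a secreted goblet cell protein that modulates chloride channels, was higher in Tibetan pigs by 3.23 on 1 probe and 2.75 on the other, with 16.36 and 16.38 in TH, 14.62 and 14.58 in TL, 12.13 and 12.13 in DH, and 12.36 and 12.40 in DL on the first. KCNE1, a potassium channel subunit, and OCLN, the tight junction protein occludin, were lowest in TL, with interactions of 2.71 and 1.98. The KCNE1 probe, like that of SCNN1G, came from a transcript cluster and was the only one tested for its gene. OCLN was also higher at high altitude, by 1.64 (adjusted p = 7.42e-06), with group means of 12.88 in TH against 10.25 in TL and of 13.06 in DH against 12.41 in DL. P2RY2, a purinergic receptor known to stimulate chloride secretion, read 7.77 and 7.85 in TH, 6.53 and 6.34 in TL, 7.04 and 6.97 in DH, and 7.54 and 7.45 in DL on the probe with the larger interaction of 1.87 (adjusted p = 4.86e-05), and its second probe, designed on the same transcript, had an interaction of 1.55 (adjusted p = 4.29e-05). It was lowest in TL on both, and under a local background with an offset of 50 these interactions were 0.49 and 0.35. Under the 5 ways of making the values, the interaction passed in all 5 on the first probe and in 1, the main values, on the second.

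NR3C1, the glucocorticoid receptor, a known inducer of sodium channel and pump genes, had probes that disagreed. The probe with the largest effect was high in TL at 14.25 and 14.34 against 12.06 to 12.76 elsewhere, with an interaction of -2.44 (adjusted p = 3.78e-06). The RefSeq probe lay between 11.60 and 12.16 with an interaction of 0.32 (adjusted p = 0.0142). On the third probe the 2 DH arrays read 9.05 and 7.68, and the array with the high value was also the higher of the 2 for SCNN1A.

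**Figure D5:**
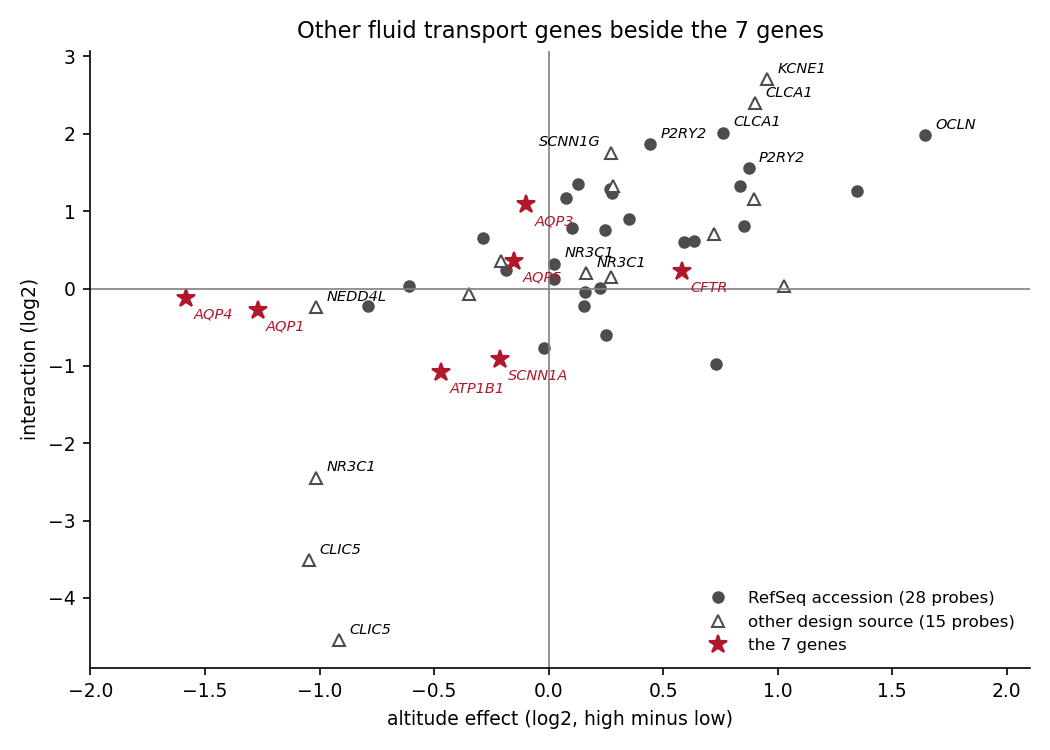
Interaction (y axis, log2) against altitude effect (x axis, log2) for the 43 probes of the wider list, by the source of the probe's design (circles and triangles), and for the 7 genes (stars). AQP4 and AQP1 lie farthest to the left with interactions near 0, NEDD4L lies closest to them, and the most negative interactions belong to probes of CLIC5 and NR3C1 from sources other than RefSeq.

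Genes with a pattern like that of each of the 7 were ranked by Pearson's r over the 8 arrays among 2594 probes with a symbol, a range of at least 1 log2 unit and signal on all arrays. Since 4 groups of 2 arrays leave few independent points, many probes reach a high r, and these values describe the arrays only. AQP4 was most like NEDD4L (r = 0.996) and SMAD9 (r = 0.993), and 22 candidates exceeded 0.95. NEDD4L encodes a ubiquitin ligase whose known targets include the epithelial sodium channel, and it had log2 normalized intensities of 9.27 and 9.29 in TH, 10.41 and 10.42 in TL, 9.54 and 9.53 in DH, and 10.39 and 10.47 in DL. Its altitude effect was -1.02, between -1.09 and -0.72 under the 5 ways of making the values, and passed the threshold in all 5. Its 1 tested probe, too, was designed on a transcript cluster and not on a RefSeq transcript.

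AQP1 was most like TGFBR3 (r = 0.992) and LDB2 (r = 0.991), with 14 candidates above 0.95. AQP3 was most like PHLDA1 (r = 0.958) and PRNP (r = 0.952), AQP5 most like LRP5 (r = 0.968) and DDO (r = 0.963), and SCNN1A most like GALP (r = 0.915) and LOC100519310 (r = 0.887). For ATP1B1, GSN and ELP4 reached r = 0.996 and r = 0.995 and 112 candidates exceeded 0.95, and for CFTR, EAPP and ACTR1A reached r = 0.996 and r = 0.994 and 130 candidates did. The patterns of ATP1B1 and CFTR were thus shared with many probes on these arrays, and those of AQP3 and SCNN1A with few. The spread within groups also limits r. Its SD reached 0.23 for AQP3 (in TL) and 0.39 for SCNN1A (in DH), against 0.07 for ATP1B1 and 0.05 for CFTR (both in DL). Among the 7 genes, AQP1 and AQP4 had r = 0.956, and AQP4 and CFTR had r = -0.817.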

How the data were processed

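Cy3-labeled RNA of 8 lungs was hybridized to Agilent porcine arrays, 1 pig per array. The authors extracted spot intensity with Agilent Feature Extraction (10.7.3.1 in the file headers, 9.1 in the labels). The deposited files give median, background and processed intensity, and a further table deposited by the authors holds log2 values, made by RMA according to the methods, with a median of 7.40 on every array.

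Median spot intensity was corrected by a normal-exponential fit with an offset of 0, quantile normalized and taken as log2. Control and outlier spots were left out and spots of a probe averaged. Breed, altitude and their interaction were tested with limma 3.58.1 (R 4.3.3) over the 34406 probes that any array showed well above background, with adjustment by Benjamini and Hochberg at the methods' FDR threshold of 0.0001. Figures were drawn with matplotlib 3.10.9. Depth has no counterpart on arrays, and the 2 pigs per group limit the precision.

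All 7 genes were named through RefSeq accessions, and no sequence or coordinate is printed. Probes without a RefSeq accession, among the wider list, markers and like genes, were named only through the study's result tables. The brightest probe stood for a marker gene with several. Genes of the wider list were named where a breed effect or interaction passed and was among the 6 largest by gene, plus SCNN1G, and like genes were the 2 with the highest r. Results for 1 gene of that list are not reported here. AQP8, AQP9 and AQP11 were singled out after their values were seen. The 7 genes and all lists were chosen with earlier results of these data known.

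On simulated data of 34270 probes, limma recovered 31 of 100 probes with an altitude effect of 1 log2 unit and 60 of 100 with 2 at 0.0001, with 0 false calls. For an interaction it recovered 0 of 100 at either size, and 65 and 78 at 0.05. Far fewer probes were changed there than passed in the data, where 17.4% passed for altitude and 21.1% for the interaction. With few changed probes the adjustment is stricter, so these recoveries do not carry over to the data. Alternatives were other signals, scalings, background corrections and filters, the deposited values, a model without moderation, an intensity trend, an FDR of 0.05, slide and replicate blocks, each array left out, and, added after the values were seen, the TL arrays left out.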

Additional observations from a re-analysis of the deposited data

Results flagged for a closer look

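The altitude difference of ATP1B1 in Tibetan pigs was below that in Duroc pigs by an interaction of -1.08 on the log2 scale (limma, adjusted p = 7.88e-05). Of the wider list, the interaction also passed for the named probes of CLIC5 (-4.54) and NR3C1 (-2.44), in the direction of ATP1B1, and of KCNE1 (2.71), CLCA1 (2.02), OCLN (1.98), P2RY2 (1.87) and SCNN1G (1.76), in the other. All of these are flagged because the difference between breeds was itself tested. All rest on contrasts in which slide and interaction cannot be told apart, and the RefSeq probe of NR3C1 gave 0.32, which did not pass. The probes of CLIC5, KCNE1 and SCNN1G were not designed on RefSeq transcripts, and no RefSeq probe of these genes was tested. These probes and the flagged NR3C1 probe were named only through the study's result tables, so they can have entered the list because these data called them.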

How the results depend on the processing

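At 0.0001, 1 gene passed for breed, 3 for altitude, 1 for the interaction, 12 of 42 pairwise differences and 48 tests of the wider list. At an FDR of 0.05 these were 5, 4, 6, 33 and 95. Without moderation, breed and interaction fell to 0 (5 and 7 genes below an unadjusted p of 0.05), pairwise to 5 and the wider list to 18. With no filter on dim probes the interaction fell to 0 (6 unadjusted). The replicate numbers did not pair the arrays, since deviations of same-numbered arrays correlated at r = -0.06 to 0.14, and with a replicate block breed and interaction fell to 0 (6 and 6 unadjusted), pairwise to 3 and the wider list to 17, and altitude was 2. Leaving out 1 array gave 0 to 0 for breed, altitude and interaction (at least 5, 4 and 5 unadjusted), 2 to 4 pairwise and 6 to 17 of the wider list, lowest without either TL array. Without both TL arrays breed and altitude were 0 and 0 (6 and 5 unadjusted), and ATP1B1 turned to -0.36 for breed and 0.069 for altitude and SCNN1A to 0.25 for altitude. The cause of these changes was not tested.

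The interaction of AQP4 turned from -0.12 to 0.049 with scaling to the 75th percentile, 0.024 with quantile normalized processed signals and 0.051 with the deposited values, in either model. The breed effects of SCNN1A and ATP1B1 turned to 0.0087 and -0.18 with scaling to the 75th percentile. AQP1 and AQP4 passed for altitude under all 12 alternatives that kept 8 arrays. Under these, CFTR lost altitude in 8, ATP1B1 lost its interaction in 4 of 11 and AQP1 lost breed in 2. The slide as a block stands in for the interaction and is the same fit, so breed and altitude could not change under it. Nor could a call be lost at an FDR of 0.05, so these 2 alternatives do not test the calls. Signal over background limited CFTR and SCNN1A.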
